A study of Mus musculus with 6 samples.

Results

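A set of 10 genes used to tell long-term stem cells from multipotent progenitors in mouse marrow, or to receive signals from the niche, was followed: Procr, Slamf1, Cd34, Ly6a, Thy1, Cd48, Tek, Robo4, Esam and Fgd5. Their probes were all non-control probes whose gene name in the scanner files is one of these, which gave 12 of 55681 probes and 10 of 34821 gene names. Cd34 and Cd48 had 2 probes each and the others 1, each printed as a single spot per array. All but Fgd5 encode surface proteins. Fgd5 encodes an intracellular exchange factor for the small GTPase Cdc42, and it belongs here as a gene used to build stem cell reporter mice.

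The cells were LSK cells, freshly sorted from mice of 2 genotypes. NIKaly/aly samples 2, 4 and 6 carry the aly allele on both copies of the gene for NF-kB-inducing kinase (NIK, gene Map3k14), and wild-type samples 1, 3 and 5 do not. The labels give no age, sex or strain, no treatment, and do not say whether a sample is 1 animal or a pool. Each sample was hybridised to 1 one-colour Agilent array, all 6 on 1 slide. No slide column held arrays of both genotypes.

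LSK cells lack markers of mature lineages and carry Sca-1, the product of Ly6a, and c-Kit, the product of Kit. Within this gate, long-term stem cells of adult mice are classically CD150 positive (Slamf1) and CD48 negative, with high EPCR (Procr) and little CD34. Most other cells of the gate are progenitors that have gained CD34 and, later, CD48. Tek encodes Tie2, the receptor for angiopoietin-1, and Esam and Robo4 encode adhesion and guidance receptors shared with endothelium. NIK starts the alternative NF-kB pathway, and the aly point mutation disables its signalling. The allele is carried by the whole animal, so stem cells and the cells around them share it.

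The probes decide which part of each transcript was read. Positions are those of the files on mm9, and exon or UTR status was not analysed here. The first set holds the 3 probes with AATAAA, the Ly6a probe and the brighter Cd48 probe. Capitals mark AATAAA, the letters of the canonical polyadenylation signal on the strand printed. AATAAA was in 3 of the 12 probes (Procr, the brighter Cd34 probe and Thy1) and in 10.06% of all 55681. Each line is a stretch of 30 bases of a 60-base probe.
Procr, chr2:155580945-155581004, plus strand: aacatcttactaAATAAAagaagttgtctg
Cd34, brighter probe, chr1:196787392-196787451, plus strand: tattctcttctgAATAAAcgtgatgagtga
Thy1, chr9:43856591-43856650, plus strand: aggaaagaaaactgcacAATAAAaccaagc
Ly6a, chr15:74825553-74825612, minus strand: agtgtgtgaaataccatgttttgcctttat
Cd48, brighter probe, chr1:173635201-173635260, plus strand: aaatcaaccttttaaaaactgtgcataata

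The dimmer probes of Cd34 and Cd48 lie upstream of the brighter ones on the chromosome and are shown whole, because they give a second reading of the same gene. The Tek probe is shown as the one that reads a niche receptor near background.
Cd34, dimmer probe, chr1:196785280-196785339, plus strand: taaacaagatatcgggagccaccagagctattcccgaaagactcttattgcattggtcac
Cd48, dimmer probe, chr1:173629721-173629780, plus strand: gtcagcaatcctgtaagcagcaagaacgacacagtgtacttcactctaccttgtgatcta
Tek, chr4:94540624-94540683, plus strand: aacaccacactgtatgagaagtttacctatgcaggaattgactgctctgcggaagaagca

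Of the 10 genes, 7 were well above background on all 6 arrays, a flag set by the scanner software. Tek was so on 3 arrays, Slamf1 on 2 and Fgd5 on 1. Testing required a signal well above background on at least 3 arrays, which 8 genes had. Of the 12 probes 10 were tested, against 38.1% of all probes. Levels are log2 units relative to the 75th percentile of the array's signal, and differences are NIKaly/aly minus wild type. Levels of different probes are not comparable with each other. For the 7 genes, the scanner software put the error of a single spot at 10% to 12.8%, while their levels ranged over the 6 arrays by 1.46-fold (Esam) to 4.49-fold (Ly6a).

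Across the series, 15682 genes were tested and none passed an adjusted p of 0.05 (0.0%; limma with Benjamini-Hochberg adjustment), so neither did any of the 8. An unadjusted p under 0.05 was reached by 208 genes (1.33%), of the 8 by Procr alone, and with each probe as its own feature by 1.28% of probes and again by Procr alone. Between 33.1% and 45.6% of spots per array were well above background, and the headers flag NIKaly/aly 6 and wild type 1 for evaluation. Precision is limited by the number of arrays. Whether samples of a genotype are different animals is not labelled, so the p-values describe the spread among samples that may differ only technically. In bulk RNA, fewer cells of a type and less RNA per cell cannot be told apart. Map3k14 itself read 1.60, 2.53 and 2.14 in NIKaly/aly 2, 4 and 6, against 0.73, 2.54 and 2.06 in wild type 1, 3 and 5, and a point mutation need not change its transcript. A dimmer Map3k14 probe, also well above background on all arrays, read -1.40, -0.03 and 0.03 in NIKaly/aly 2, 4 and 6. In wild type 1, 3 and 5 that probe read -1.08, -0.62 and -0.45. The genotypes overlapped in both probes.

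The sort label was compared with marker genes. Kit was well above background on all arrays, at 4.66, 5.17 and 5.45 in NIKaly/aly 2, 4 and 6 and at 4.65, 5.20 and 4.88 in wild type 1, 3 and 5. Among genes of mature lineages that such a sort depletes, Cd8a was well above background on no array, while Cd3e, Cd4, Cd5, Itgam and Ly6g were on all 6. A second Cd4 probe was well above background on no array. Signal from erythroid genes set samples 1 and 2 apart. Levels of the 6 tested genes among 8 erythroblast markers were summed, in multiples of the array's 75th percentile. The sum was 196, 8.18 and 19.7 in NIKaly/aly 2, 4 and 6 and 398, 9.91 and 15.7 in wild type 1, 3 and 5. The bearing of this signal on the 10 genes was not tested, and values without samples 1 and 2 are given below.

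Procr was the member with the clearest difference. It encodes the endothelial protein C receptor, which binds protein C and marks stem cells with long-term activity. It read 3.07, 2.50 and 2.65 in NIKaly/aly 2, 4 and 6, against 2.0003, 1.72 and 2.17 in wild type 1, 3 and 5. Every NIKaly/aly sample lay above every wild-type sample. The difference was 0.78 ± 0.28 (SE, n = 3 per genotype), a 1.71-fold higher level with a 95% interval of 1.10 to 2.66, and the adjusted p was 0.99998 in limma. The unadjusted p in limma depended on the setting: it was 0.023 here, 0.117 with median scaling, 0.063 when NIKaly/aly 2 was left out, 0.097 when wild type 3 was, and 0.062 within samples 1 to 4. By unadjusted p it ranked 97th and by size 664th of the 15682 genes. Higher without overlap were 2.68% of tested genes and 1 of the 8 followed, and lower without overlap were 1.89% of tested genes and 0 of the 8, which makes 4.57% of tested genes in either direction.

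**Figure D1:**
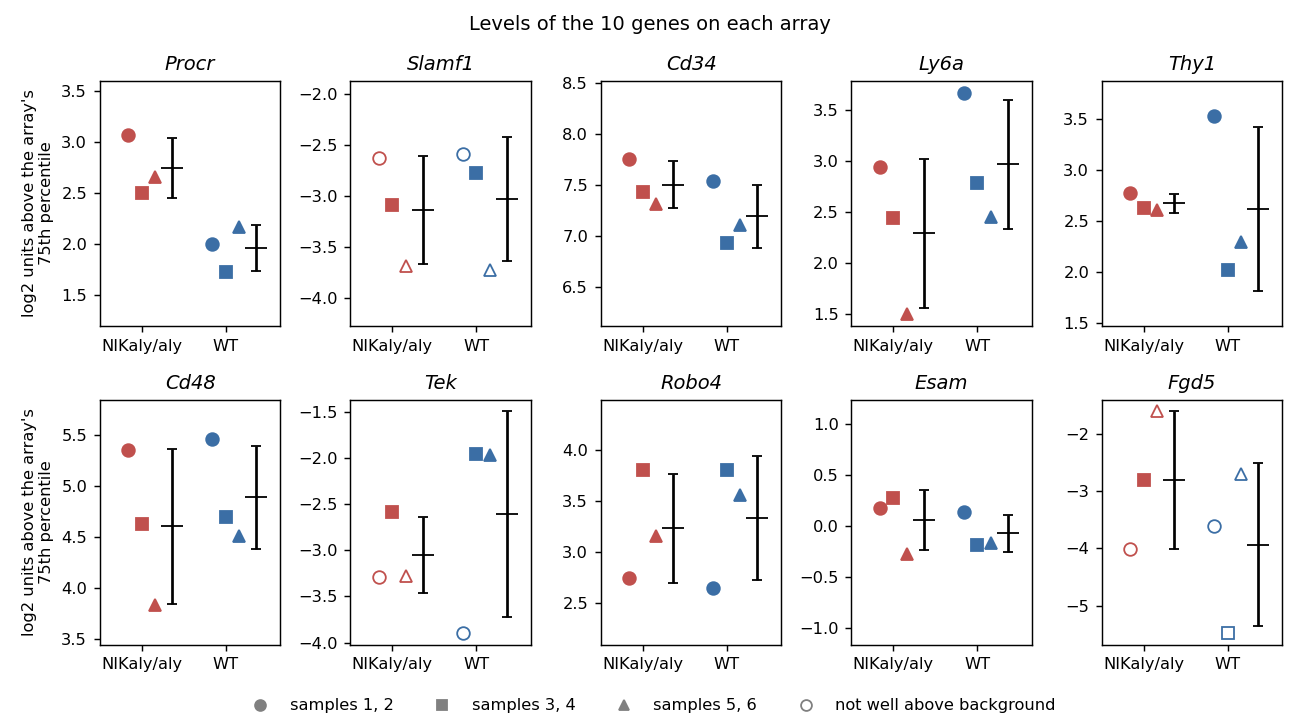
Level of each of the 10 genes (the brighter probe of Cd34 and Cd48) on the log2 scale, relative to the array's 75th percentile of signal, NIKaly/aly on the left and WT on the right of each panel. Points are arrays, with open symbols where the spot was not well above background, and bars are the mean ± SD (n = 3); panels have their own vertical scales. Among the 7 genes with filled symbols on all arrays, only Procr has genotypes that do not overlap.

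Arrays with consecutive numbers, 1 of each genotype, resemble each other in these data, although the labels do not pair them. Procr was higher by 1.07 in sample 2 than in sample 1, by 0.78 in sample 4 than in sample 3 and by 0.48 in sample 6 than in sample 5. With these pairs as a block its SE was 0.16, and its adjusted p was 0.188 in limma. That fit called 2 genes over the whole table (0.0128%), neither of them a member. At an unadjusted p under 0.05 it held 7.35% of genes, and among the 8 members Procr and Cd34 higher and Ly6a lower. Without samples 1 and 2, Procr differed by 0.63 ± 0.23, and within samples 1 to 4, which share a slide row, by 0.92 ± 0.41.

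Slamf1 and Fgd5, which also mark long-term stem cells, were too dim to follow. Slamf1 encodes CD150, a self-binding receptor of the SLAM family. Its probe read -2.63, -3.08 and -3.68 in NIKaly/aly 2, 4 and 6 and -2.59, -2.77 and -3.72 in wild type 1, 3 and 5, and was well above background only in NIKaly/aly 4 and wild type 3. The genotypes overlapped throughout. Fgd5 read -4.01, -2.80 and -1.59 in NIKaly/aly 2, 4 and 6 and -3.62, -5.49 and -2.69 in wild type 1, 3 and 5, and was well above background in NIKaly/aly 4 alone. Neither has a usable fold change. The spot error for these 2 genes was 15.7% to 100%. The end of the Fgd5 probe, at chr6:92025610-92025669 on the plus strand, is a repeat of aaac followed by other letters, and is shown because a dim reading rests on it alone.
Fgd5: aacaaacaaacaaaccaccatctcaaggac

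Ly6a, the gene of the gate protein Sca-1, read lower in NIKaly/aly within each consecutive pair, but its genotypes overlapped. It read 2.94, 2.44 and 1.503 in NIKaly/aly 2, 4 and 6, against 3.67, 2.79 and 2.45 in wild type 1, 3 and 5. Wild type 1 was the highest array and NIKaly/aly 6 the lowest. The difference was -0.68 ± 0.46 (SE, n = 3 per genotype; adjusted p = 0.99998 in limma), with a 95% interval for the fold of 0.302 to 1.30. Leaving out NIKaly/aly 6 made it -0.28, and leaving out wild type 1 made it -0.32. Within the pairs it was lower by 0.73, 0.34 and 0.95 in samples 2, 4 and 6. With the pairs as a block the SE was 0.16 and the adjusted p 0.263 in limma. An LSK gate selects on Sca-1 protein, so cells with little of it would not be collected in either genotype. Ly6 genes resemble each other in sequence, and uptake of related transcripts by the probe was not tested.

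Thy1 encodes CD90, which is low on mouse stem cells and high on T cells. It read 2.78, 2.63 and 2.60 in NIKaly/aly 2, 4 and 6, against 3.53, 2.02 and 2.29 in wild type 1, 3 and 5. The NIKaly/aly samples lay close together, inside the range of the wild-type samples, which wild type 1 stretched upward. The difference was 0.06 ± 0.40 (SE) with all arrays, 0.51 without wild type 1 and -0.24 without wild type 3. It was 0.46 ± 0.19 without samples 1 and 2. The summed level of the 7 tested genes among 10 T cell markers was 21.3 to 36.2 in NIKaly/aly. It was 21.6 to 47.2 in wild type, highest in wild type 1 as for Thy1. Cd8a, Cd8b1 and Trat1, left out of the sum, were well above background on no array. The part of T cell markers in the Thy1 reading was not tested.

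Cd34 encodes a sialomucin that most LSK cells carry and that adult long-term stem cells largely lack. Its brighter probe read 7.76, 7.43 and 7.31 in NIKaly/aly 2, 4 and 6, against 7.53, 6.93 and 7.11 in wild type 1, 3 and 5. The ranges overlapped through wild type 1. The difference was 0.31 ± 0.35 (SE; adjusted p = 0.99998 in limma), and it was 0.22, 0.51 and 0.20 within the pairs. With the pairs as a block the adjusted p was 0.657 in limma. The dimmer probe read 2.08, 1.96 and 1.94 in NIKaly/aly and 1.70, 1.94 and 1.84 in wild type 1, 3 and 5. It differed by 0.17, the same direction, with samples 4 and 3 nearly equal.

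Cd48 encodes the ligand of CD244 and appears on progenitors as they leave the stem cell state. Its brighter probe read 5.35, 4.62 and 3.83 in NIKaly/aly 2, 4 and 6, against 5.45, 4.69 and 4.51 in wild type 1, 3 and 5. Samples 1 and 2 were the highest of their genotypes and NIKaly/aly 6 the lowest of all. The difference was -0.28 ± 0.45 (SE; adjusted p = 0.99998 in limma), and leaving out NIKaly/aly 6 or wild type 1 moved it to 0.10 or 0.0017. The dimmer probe read 4.27, 3.46 and 2.67 in NIKaly/aly 2, 4 and 6 and 4.40, 3.62 and 3.44 in wild type 1, 3 and 5, a difference of -0.36. Both probes thus ordered the arrays alike, with the pair of samples 5 and 6 far wider apart than the other two.

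In all 3 pairs 4 of the 8 tested genes differed in 1 direction: Procr and Cd34 higher, Ly6a and Cd48 lower. Among all tested genes 30.1% did so, 13.8% higher and 16.2% lower. Of the remaining 4, Thy1 was lower in sample 2 than in sample 1 and higher in the other pairs. Tek, Esam and Robo4 were also mixed. The members were not chosen blind to these data, so their share against the table's is a description.

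**Figure D2:**
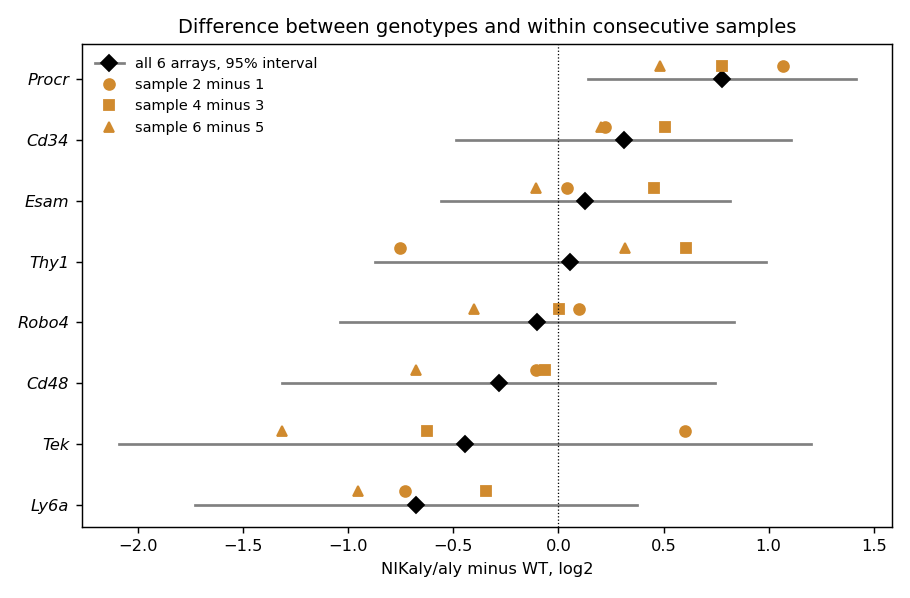
NIKaly/aly minus WT on the log2 scale for the 8 tested genes, ordered by size. Black diamonds with lines are the difference over all 6 arrays with its 95% interval, and orange symbols are the differences within consecutive samples; the Procr interval alone leaves out 0, and Procr, Cd34, Cd48 and Ly6a have all 3 orange symbols on 1 side.

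Tek was near background and its reading followed the array more than the genotype. It read -3.30, -2.58 and -3.28 in NIKaly/aly 2, 4 and 6, against -3.90, -1.96 and -1.97 in wild type 1, 3 and 5, and was well above background in NIKaly/aly 4, wild type 3 and wild type 5. The lowest and the highest array were both wild type. The difference was -0.44 ± 0.71 (SE; adjusted p = 0.99998 in limma), with a 95% interval for the fold of 0.235 to 2.30. It was -0.97 ± 0.53 without samples 1 and 2 and -0.0096 ± 1.02 within samples 1 to 4.

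Robo4, a roundabout receptor that takes part in lodging stem cells in marrow, read 2.74, 3.80 and 3.16 in NIKaly/aly 2, 4 and 6, against 2.65, 3.80 and 3.56 in wild type 1, 3 and 5. Samples 1 and 2 were the lowest of their genotypes, the reverse of Ly6a and Cd48. The difference was -0.10 ± 0.41 (SE), with a 95% interval for the fold of 0.487 to 1.78. Esam, an adhesion molecule of the immunoglobulin superfamily, read 0.18, 0.27 and -0.27 in NIKaly/aly 2, 4 and 6, against 0.14, -0.18 and -0.16 in wild type 1, 3 and 5. Its whole range over the arrays, 0.55, was the narrowest of the 8 genes. The difference was 0.13 ± 0.30 (SE), with a 95% interval for the fold of 0.680 to 1.76, and both genes had an adjusted p of 0.99998 in limma.

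Procr, Cd34, Tek, Esam, Robo4 and Fgd5 are also expressed by endothelium. Of 16 endothelial markers, Cdh5, Flt1, Sox18 and Lyve1 were well above background on no array, and Pecam1, Kdr, Tie1, Egfl7, Emcn and Vwf were on all 6, several of which LSK cells express themselves. A second Kdr probe was well above background on only 1 array of each genotype. The summed level of the 9 tested markers was 114 to 206 in NIKaly/aly and 116 to 258 in wild type, highest in samples 1 and 2. Most of this sum was Egfl7, at 6.47 to 7.56 in NIKaly/aly and 6.51 to 7.83 in wild type. Against the mean of the other arrays, samples 1 and 2 were not higher for Vwf (-0.26), Emcn (-0.29), Tie1 (-0.06) and Pecam1 (-0.0032). They were higher for Egfl7, Kdr, Plvap, Cldn5 and Ramp2. Of the 9 markers, 7 read lower in NIKaly/aly, while 48.5% of all tested genes read higher. In all 3 pairs 4 were lower (16.2% of all tested genes). The part of these markers in the readings of the 6 followed genes was not tested.

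The array split moved several members by more than the genotype did. The mean of samples 1 and 2 exceeded that of the other 4 by 1.01 for Ly6a, 0.99 for Cd48, 0.77 for Thy1, 0.45 for Cd34, 0.27 for Procr and 0.25 for Esam. It was below it by 0.89 for Robo4 and by 1.15 for Tek. Of the 8 genes, only Procr had a genotype difference larger than this split. With samples 1 and 2 left out, 2 arrays a genotype remained, and the differences were 0.35 ± 0.16 for Cd34, -0.65 ± 0.35 for Ly6a, -0.37 ± 0.29 for Cd48, 0.17 ± 0.31 for Esam and -0.20 ± 0.26 for Robo4 (SE). The signs of these 5 were those over all 6 arrays, and none passed the adjustment in limma.

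Ratios of 2 genes on the same array do not depend on a scaling factor shared by the whole array, such as its percentile or median. Quantile normalization and background correction can change them, and the ratios were not computed under those. Of the 28 ratios among the 8 genes, 5 did not overlap between genotypes, against 5.14% of all 122954721 gene pairs. The log2 ratio of Procr to Ly6a was 0.13, 0.06 and 1.15 in NIKaly/aly 2, 4 and 6, against -1.67, -1.06 and -0.28 in wild type 1, 3 and 5, a difference of 1.45. Procr also separated from Cd48 (1.06) and from the brighter Cd34 probe (0.47). Of the 7 ratios with Procr, 3 thus separated with NIKaly/aly higher. Of all 15681 other genes, 38.7% gave such a separation with Procr, so these ratios carry little beyond Procr's own difference.

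The remaining 2 ratios were with Ly6a. The log2 ratio of Cd34 to Ly6a was 4.82, 4.99 and 5.81 in NIKaly/aly 2, 4 and 6, against 3.86, 4.14 and 4.66 in wild type 1, 3 and 5. That of Cd48 to Ly6a was 2.41, 2.18 and 2.33 in NIKaly/aly 2, 4 and 6, against 1.78, 1.90 and 2.06 in wild type 1, 3 and 5. Cd48 and Ly6a moved together over the arrays, and the SD of their ratio was 0.11 in NIKaly/aly and 0.14 in wild type, against a difference of 0.39. Ratios of Ly6a to 23.2% of the 15681 other genes separated with NIKaly/aly lower, so 3 of the 7 with Ly6a, the one with Procr included, is a description.

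Relatives and partners were taken by family. Of the SLAM receptors other than Slamf1 and Cd48, Cd84, Cd244, Ly9 and Slamf9 were tested. The brightest probe of each differed by 0.09, -0.07, 0.10 and -0.37, with overlapping genotypes. A dimmer Ly9 probe, well above background on every array, read 0.0028, -0.55 and -0.47 in NIKaly/aly 2, 4 and 6. It read -1.25, -0.74 and -0.84 in wild type 1, 3 and 5, without overlap. Slamf6 and Slamf7 were well above background on 2 arrays and Slamf8 on 1. In the protein C pathway, the thrombin receptor gene F2r differed by 0.10, the thrombomodulin gene Thbd by -0.27 and the protein S gene Pros1 by 0.39, all with overlap. Proc and F2rl1 were well above background on no array.

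Among partners of Tek, the ligand gene Angpt1 read 4.30, 4.25 and 4.21 in NIKaly/aly 2, 4 and 6, against 4.09, 4.06 and 3.83 in wild type 1, 3 and 5. The groups did not overlap, and the difference was 0.26 ± 0.25 (SE; adjusted p = 0.99998 in limma). The related receptor gene Tie1 differed by 0.09. Angpt2, Angpt4 and Ptprb were well above background on no array. Of the Slit and Robo genes besides Robo4, Robo3 was tested and differed by -0.48 with overlap. Robo1, Robo2 and Slit2 were well above background on no array and Slit1 and Slit3 on 1, so the Slit ligands were near or below background in these cells. The CD34 relatives Podxl and Podxl2 were well above background on no array.

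Beside Esam, the junctional adhesion molecule gene F11r read 2.70, 2.81 and 2.92 in NIKaly/aly 2, 4 and 6, against 2.24, 2.21 and 2.46 in wild type 1, 3 and 5. The genotypes did not overlap, and the difference was 0.50 ± 0.24 (SE; adjusted p = 0.99998 in limma). Jam3 differed by 0.03, Jam2 was well above background on 2 arrays, and Cxadr and Clmp on 1. Of 10 Ly6 genes 6 were tested, Ly6a included, and 5 read lower, 4 of them in all 3 pairs, which 16.2% of all tested genes were. Ly6d, a gene of early B cell commitment, differed by -1.02 ± 1.03 and Ly6e by -0.35 ± 0.48 (SE), with adjusted p of 0.99998 each in limma and genotypes that overlapped. Beside Ly6d, the summed level of 9 B cell markers was 47.8 to 108 in NIKaly/aly and 63.5 to 165 in wild type, and its part was not tested. Among the Fgd genes, Fgd2 read 2.48, 2.69 and 1.90 in NIKaly/aly 2, 4 and 6 and 2.88, 3.25 and 3.05 in wild type 1, 3 and 5, without overlap (-0.70 ± 0.30, SE; adjusted p = 0.99998 in limma). Fgd1, Fgd3, Fgd4 and Cdc42 differed by 0.17, -0.00060, -0.10 and 0.12, and Fgd6 was well above background on no array.

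Of 14 other stem cell surface and reporter genes, 12 were tested and none passed the adjustment. The genotypes did not overlap for 3 of them, against 4.57% of all tested genes. Abcg2, the dye transporter behind the side population, read higher (0.53 ± 0.29, SE). Ctnnal1, the alpha-catulin reporter gene, and Vwf, which marks platelet-biased stem cells, read lower (-0.65 ± 0.34 and -0.64 ± 0.26, SE). Ctnnal1 was well above background on 2 NIKaly/aly and 3 wild-type arrays. Of the 12 differences, 5 were above 0 and 7 below. Of 8 progenitor surface genes all were tested, 7 read lower in NIKaly/aly and 6 were lower in all 3 pairs (16.2% of all tested genes), with a median difference of -0.43 against -0.01 over all tested genes. Csf1r, the receptor of macrophage colony-stimulating factor, read 3.82, 3.77 and 3.26 in NIKaly/aly 2, 4 and 6, against 5.29, 4.51 and 4.55 in wild type 1, 3 and 5. It did not overlap and differed by -1.17 ± 0.33 (SE; adjusted p = 0.99998 in limma). The one gene above 0 was Flt3, at 0.13 in its brightest probe. A dimmer tested Flt3 probe read 2.22, 2.545 and 2.27 in NIKaly/aly 2, 4 and 6, against 2.76, 2.83 and 2.14 in wild type 1, 3 and 5. That probe was lower in samples 2 and 4 than in samples 1 and 3, and higher in sample 6 than in sample 5. Markers of macrophages and dendritic cells, a list that also holds Csf1r, moved with this group: of 7 tested, 6 read lower and 5 did so in all 3 pairs, with a median of -1.01. Without overlap, the fractalkine receptor gene Cx3cr1 (-1.08 ± 0.40) and the integrin gene Itgax (-1.01 ± 0.38) read lower and Cd14, a co-receptor for lipopolysaccharide, read higher (2.04 ± 0.60, SE; adjusted p = 0.99998 each in limma). Cx3cr1 and Itgax were well above background on 2 NIKaly/aly and 3 wild-type arrays. The dimmest tested Cx3cr1 probe overlapped, at -2.32, -2.00 and -3.62 in NIKaly/aly 2, 4 and 6. It read -2.23, -2.21 and -1.79 in wild type 1, 3 and 5. The remaining Cx3cr1 probe did not overlap. The summed level of the 7 tested genes of this list was 26.8 to 41.5 in NIKaly/aly and 33.0 to 54.5 in wild type. The part of this list in the progenitor genes was not tested. No gene of the stromal, T cell, B cell, neutrophil, erythroblast or megakaryocyte lists separated the genotypes. For the 8 tested stem cell genes the median difference was -0.02, with 4 above 0 and 4 below, against 48.5% of all tested genes above 0.

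**Figure D3:**
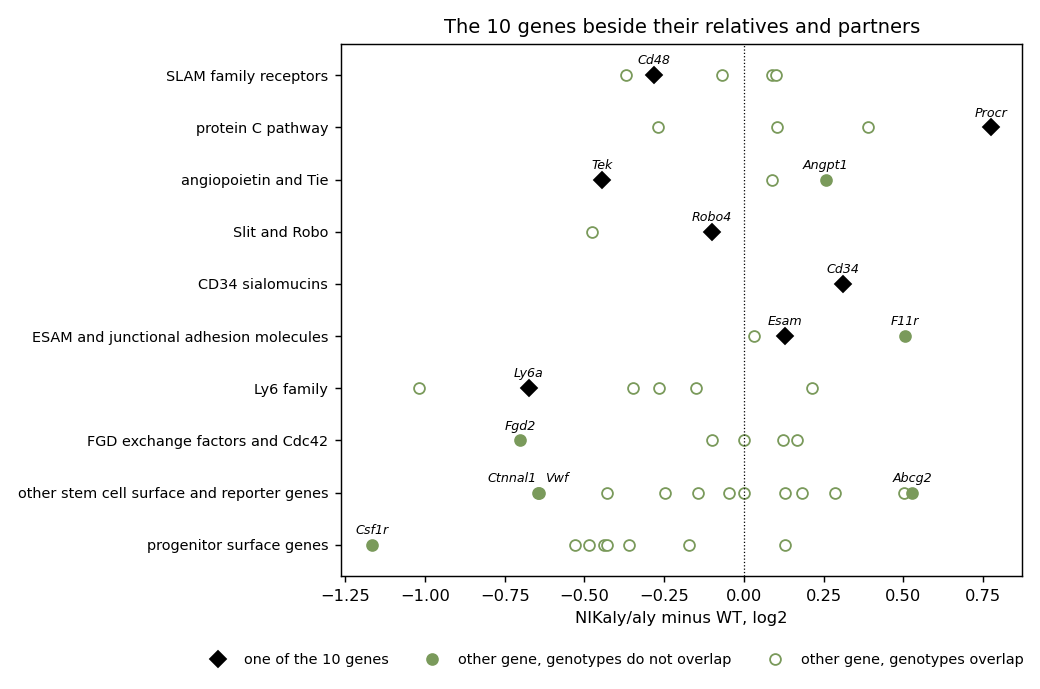
NIKaly/aly minus WT on the log2 scale for the tested genes of each family, in rows. Black diamonds are the followed genes, filled green circles other genes whose genotypes did not overlap and open circles those that overlapped; Procr lies farthest to the right and Csf1r farthest to the left, with most progenitor surface genes left of 0.

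The differences of Procr, Cd34, Ly6a and Tek kept their sign under every alternative scaling, filter, model and omission that was run, and those of Cd48, Esam, Robo4 and Thy1 did not. The filters and the pair and row blocks could not change a sign. Procr stayed between 0.61 and 0.92 and Cd34 between 0.18 and 0.48. Ly6a ranged from -0.998 to -0.28 and Tek from -1.09 to -0.0096.

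**Figure D4:**
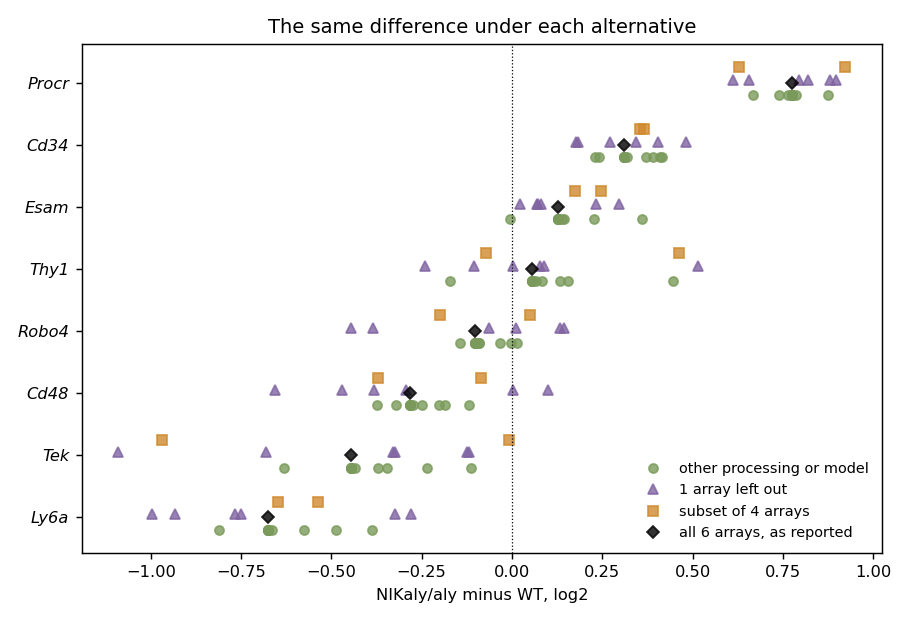
NIKaly/aly minus WT on the log2 scale for the 8 tested genes under each alternative, with symbols by kind. Procr, between 0.61 and 0.92, lies above 0 throughout, whereas Thy1 and Robo4 lie on both sides of 0.

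Of the 10 genes, 7 (not Ly6a, Thy1 or Esam) had a promoter window in the RefSeq table for GRCm38.p6. The kappaB consensus, sought on both strands, was in 0 of the 7 and in 8.459% of all 32851 promoters, which says only that these letters are not in those windows.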

How the data were processed

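Transcript levels were measured in LSK cells of 3 NIKaly/aly and 3 wild-type samples on 1 slide. Spot intensity was extracted by the authors with Agilent Feature Extraction 10.7.3.1 (protocol GE1_107_Sep09, mm9), per the file headers. The authors' deposited series table is a ratio, the processed signal over the array's median, which equals median scaling. Here levels were log2 of the processed signal minus log2 of the 75th percentile of the 59305 non-control spots of that array. Outlier flags and controls were dropped, and no spot was saturated. Probes well above background on at least 3 arrays were tested (21239, of which 22 lacked a value), and the brightest probe stood for a gene (15682). Genotype was the only term in limma 3.58.1 (R 4.3.3, lmFit, eBayes with trend, 4 residual degrees of freedom, two-sided, Benjamini-Hochberg over all genes at 0.05). The fit was tried on simulated data with changes larger than any member's and a capped spread. That trial cannot show whether differences of the members' size would be detected. The 10 genes, the family and marker lists and the tests were chosen with earlier results of these data known. Named are all 10 genes, Kit, the listed relatives of each, and from each list genes whose genotypes did not overlap, at most 4. Alternatives were background correction, scaling, filter, probe choice, pair, row and column blocks, array weights and omitted samples. Some lineage genes are not reported here.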

Additional observations from a re-analysis of the deposited data

How the results depend on the processing

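The count of genes past the adjusted threshold was 0. It was 10 with median scaling, 1 with normexp background correction, 2 with no filter on dim probes, 2 with the sample pair block, 1379 with array column as a random block, 5 with array weights, and 0 to 1 when 1 sample was left out. An unadjusted p under 0.05 was reached by 208 genes. It was reached by 119 with median scaling, 119 with normexp, 133 with the filter on all 6 arrays, 1153 with the pair block, 4325 with the array column, 695 with array weights, 327 without samples 1 and 2 and 92 within slide row 1. The array column fit estimated a correlation of -0.875 within a column, which shrinks the error. Each slide column held a single genotype, so an effect of column cannot be told apart from genotype. In this fit Procr (0.78, adjusted p = 0.0086 in limma) and Ly6a (-0.81, adjusted p = 0.020 in limma) passed, and in no other setting did a member. Of 159 values of the 8 members under the alternatives, 145 kept direction and side of the threshold, 2 passed and 12 changed sign. Part of this count was fixed in advance. Both filters, the pair block, the row block and each probe as its own feature gave every tested member its main difference again. The mean of a gene's probes did so for members with 1 probe. In these settings only the side of the threshold could change. Sign changes were Esam at -0.0061 and Thy1 at -0.17 with the array column, Robo4 at 0.013 with array weights, and Robo4 at 0.050 and Thy1 at -0.073 within slide row 1. When 1 sample was left out, Cd48 ranged from -0.66 to 0.10, Robo4 from -0.45 to 0.14 and Thy1 from -0.24 to 0.51. Their causes were not tested. The genotypes share no replicate number in the labels, so the sample pair block rests on a likeness of consecutive samples seen earlier in these data. Slamf1, Fgd5 and Tek were limited by signal near background.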
